A study of Mus musculus with 24 samples.

Results

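The subunits of the respiratory chain and of the ATP synthase were followed through 82 nuclear genes in primary cultures of mouse fetal midbrain and cortex kept in 3% or 21% O2. The genes were chosen by symbol alone: the Ndufa, Ndufb, Ndufc, Ndufs and Ndufv genes without the Ndufaf assembly factors, Sdha to Sdhd, and every symbol that begins with Uqcr, Cox4, Cox5, Cox6, Cox7, Cox8 or Atp5. They are 82 of the 19938 genes that have a probe set with a single gene symbol. They own 107 probe sets, and each of the 17 genes with more than 1 was represented by the probe set with the highest mean over all arrays. Complex I contributed 34 genes, complex II 4, complex III 8, complex IV 19 and complex V, the ATP synthase, 17. Ndufa4 and Ndufa4l2 were counted with complex IV. A further 6 probe sets that name several genes were left out, so Cox7c and Ndufb4 are not among the members.

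Complexes I and II pass electrons from NADH and succinate to ubiquinone, complex III passes them on to cytochrome c, and complex IV reduces oxygen to water. The proton gradient built on the way drives the ATP synthase. Most subunits are made in all tissues, but complex IV has subunits with more than 1 gene. Cox6a2, Cox7a1 and Cox8b are known as heart and skeletal muscle isoforms, Cox6b2, Cox7b2 and Cox8c as testis isoforms, and Cox4i2 and Ndufa4l2 as hypoxia-inducible genes that brain pericytes express.

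The cultures came from C57Bl/6 mice at embryonic day 14, with no further genotype named, and all were grown in expansion medium, which favours dividing progenitors. Midbrain and cortex cultures, each labelled 48 h or 13 d, were kept either in 3% O2, supplied as a mix with nitrogen and carbon dioxide, or in 21% O2, as in room air. This gives 8 groups of 3 whole-transcript arrays, 24 in all. No label says whether the 3 arrays of a group stand for separate dissections or wells, so every p-value below describes the spread among arrays, which could be technical.

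The deposited log2 values ran from 4.65 to 14.49, array medians from 7.35 to 7.42, and correlations within groups from 0.986 to 0.999. Precision is limited by having 3 arrays in a group. Of the 82 subunit genes, 79 had a mean above the median of all tested probe sets, and Cox7b2, Cox8b and Cox8c did not. The labels mark the 6 midbrain 13 d arrays as array 1 and the other 18 as array 2, so no subunit level in midbrain 13 d was tested against another group. Among the array 2 groups in 21% O2, cortex went against its time labels: midbrain 48 h correlated less with cortex labelled 48 h (r = 0.930) than with cortex labelled 13 d (0.974). The mean of 10 neuron markers was 11.88 ± 0.04 in midbrain 48 h, 11.33 ± 0.04 in cortex labelled 13 d and 9.36 ± 0.05 in cortex labelled 48 h (SD, n = 3 arrays). The mean of 9 neural stem and radial glia markers in 21% O2 lay between 9.99 ± 0.20 in midbrain 48 h and 11.27 ± 0.08 in cortex labelled 48 h. Cortex times are therefore called labelled times.

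The main comparison is that of 3% with 21% O2 within each region and time. Changes are differences of mean log2 values, 3% minus 21% O2, ± the standard error from limma, with 3 arrays per group. A gene rose or fell only if limma's p-value, adjusted by Benjamini-Hochberg over 23410 probe sets, was under 0.05. Of the 82 subunit genes 67 passed in none of the 4 oxygen comparisons, 9 in 1, 5 in 2 and 1, Ndufa4l2, in 3, with none in 4. The 67 are 81.7% of the subunit genes, beside 70.4% of all tested probe sets that passed in none, 21.6% in 1, 7.65% in 2, 0.290% in 3 and 0.0598% in 4. No gene rose in 1 comparison and fell in another. The plot of changes by complex shows how few genes leave the narrow column around 0 and that most of those that do belong to complex IV.

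**Figure D1:**
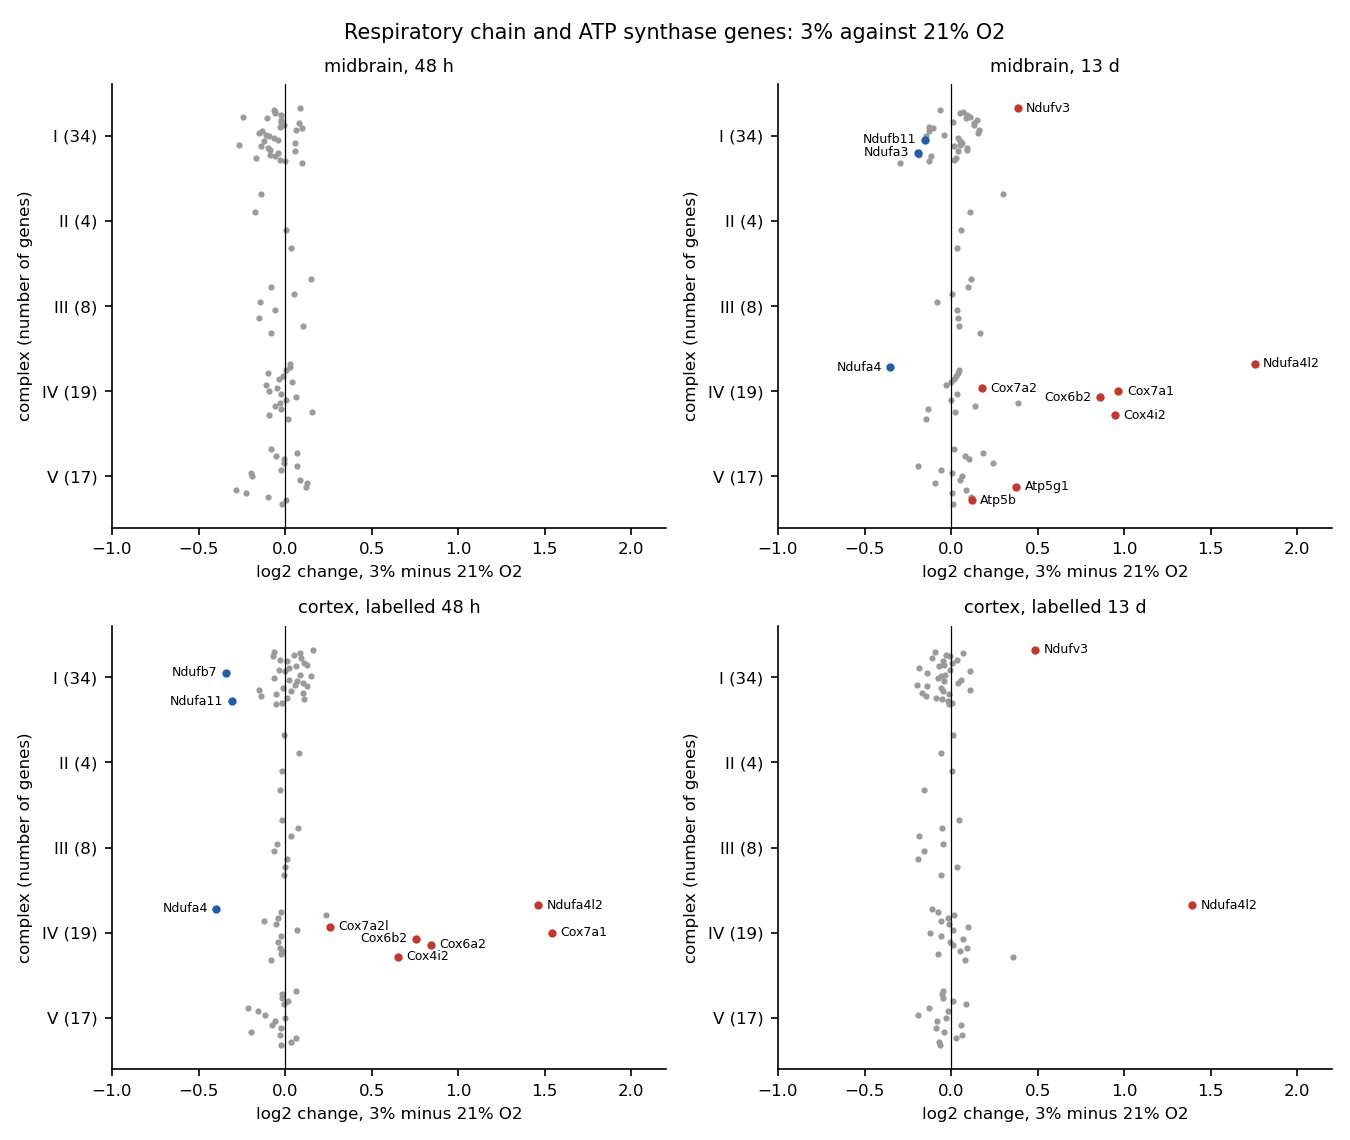
Log2 change (3% minus 21% O2, horizontal axis) of each of the 82 subunit genes, by complex (vertical axis, with the number of genes), in the 4 oxygen comparisons. Each point is 1 gene; red points rose and blue points fell at an adjusted p under 0.05, grey points did not pass, and the vertical line marks 0. The largest rises in midbrain 13 d and cortex labelled 48 h are those of Ndufa4l2 and Cox7a1. In cortex labelled 13 d only Ndufa4l2 and Ndufv3 rose, and the midbrain 48 h panel has no called gene.

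In midbrain at 48 h none of the 82 subunit genes passed the test in limma, against 0.701% of all tested probe sets that rose and 0.491% that fell. At an unadjusted p under 0.05, 1 subunit gene was higher and 6 were lower, beside 6.44% and 8.44% of all tested probe sets. The median change was -0.03, beside -0.02 over all tested probe sets, and for 80 of 82 genes the 95% interval of the change lay within 0.5 log2 units of 0. The 3 genes with the smallest p, none of which passed, were Ndufa9, a complex I subunit of the arm that binds ubiquinone (-0.27 ± 0.08, adjusted p = 0.11), Atp5d, the delta subunit of the central stalk (-0.23 ± 0.07, adjusted p = 0.11), and Uqcrb, a small complex III subunit (-0.15 ± 0.06, adjusted p = 0.22). Ndufa4l2 read 7.05, 6.82 and 6.84 in 3% O2 and 6.72, 6.89 and 7.02 in 21% O2, and the groups overlapped (0.03 ± 0.14, adjusted p = 0.96).

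Of 14 genes listed as hypoxic regulators of respiration, 6 rose in these midbrain 48 h arrays, none fell and 8 did not pass. Ldha, which makes lactate from pyruvate, rose by 1.15 ± 0.10 (adjusted p = 7.8e-06), and Slc16a3, which exports lactate, by 2.50 ± 0.30 (adjusted p = 0.00025). Pdk1, the kinase that shuts off pyruvate dehydrogenase, rose by 1.57 ± 0.23 (adjusted p = 0.0015). Replicate 1 in 21% O2 stood above the other arrays of its group in the mean of every complex, for example at 10.82 against 10.37 and 10.29 for complex III; the mean of complex IV is over 11 genes, without the 8 isoforms named further on. Without it, 2 subunit genes passed in limma, Uqcrq (0.31, adjusted p = 0.022) and Uqcrfs1, the Rieske iron-sulfur protein (0.30, adjusted p = 0.038). In that fit 302 of all tested probe sets were called, against 279 in the main fit.

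In midbrain at 13 d 8 of the 82 subunit genes rose and 3 fell in 3% O2, while 11.2% of all tested probe sets rose and 12.7% fell. These counts are 9.76% and 3.66% of the subunit genes, but the background shares are not matched for brightness. Of the subunit genes 79 lie above the median of all tested probe sets. With only the probe sets above that median fitted, 4713 probe sets were called, against 5584 in the main fit, and 12 subunit genes. The shares over all tested probe sets therefore understate the background of these bright genes. The median change of the subunit genes was 0.04, beside -0.01 over all tested probe sets, and the 95% interval stayed within 0.5 log2 units of 0 for 73 genes. Complex IV held 5 of the rises and 1 of the falls, complex I 1 and 2, and complex V 2 rises. None of the 4 complex II and 8 complex III genes passed.

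The largest rise was that of Ndufa4l2, a paralogue of Ndufa4 that lowers oxygen consumption when induced. It read 9.01, 9.54 and 9.19 in 3% O2 and 7.47, 7.53 and 7.47 in 21% O2. Every 3% O2 array lay well above every 21% O2 array, and the change was 1.75 ± 0.14, or 3.37-fold (adjusted p = 3e-08). Cox4i2, an isoform of the largest nuclear-encoded subunit of the enzyme, read 8.70, 8.84 and 8.75 against 7.69, 7.90 and 7.86. The groups were again apart (0.95 ± 0.13, adjusted p = 2.8e-05). Cox6b2 read 9.36, 9.75 and 9.50 in 3% O2 and 8.55, 8.82 and 8.67 in 21% O2 (0.86 ± 0.13, adjusted p = 5.5e-05). Cox7a1 read 10.04, 10.55 and 9.93 against 9.09, 9.34 and 9.19, also without overlap (0.97 ± 0.25, adjusted p = 0.0072). Over 14 alternatives its change went down to 0.78 and limma's adjusted p up to 0.046. Replicate 2 in 3% O2, the highest array for each of these genes, stood apart from the others of its group. Its correlations with them were 0.995 and 0.996, against 0.999 between them, and its oligodendrocyte marker mean was 10.00 against 10.44 and 10.47. Without replicate 2 all 11 calls were kept.

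The counterparts of these isoforms that most tissues use moved less. The isoforms were named for having the largest rises here, so nothing is read from that. Ndufa4 fell by 0.35 ± 0.06 (adjusted p = 7.7e-05), from 10.84, 10.73 and 10.82 in 21% O2 to 10.44, 10.49 and 10.41 in 3% O2. The 2 groups did not overlap, and the fall amounts to 1.28-fold. Cox4i1 (-0.14 ± 0.09, adjusted p = 0.31) and Cox6b1 (0.00 ± 0.06, adjusted p = 1) did not pass, and Cox7a2 rose by 0.18 ± 0.06 (adjusted p = 0.03). Cox6a2 did not pass (0.39 ± 0.19, adjusted p = 0.17). Only replicate 2 was high in 3% O2, at 9.00 against 7.96 and 7.88.

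**Figure D2:**
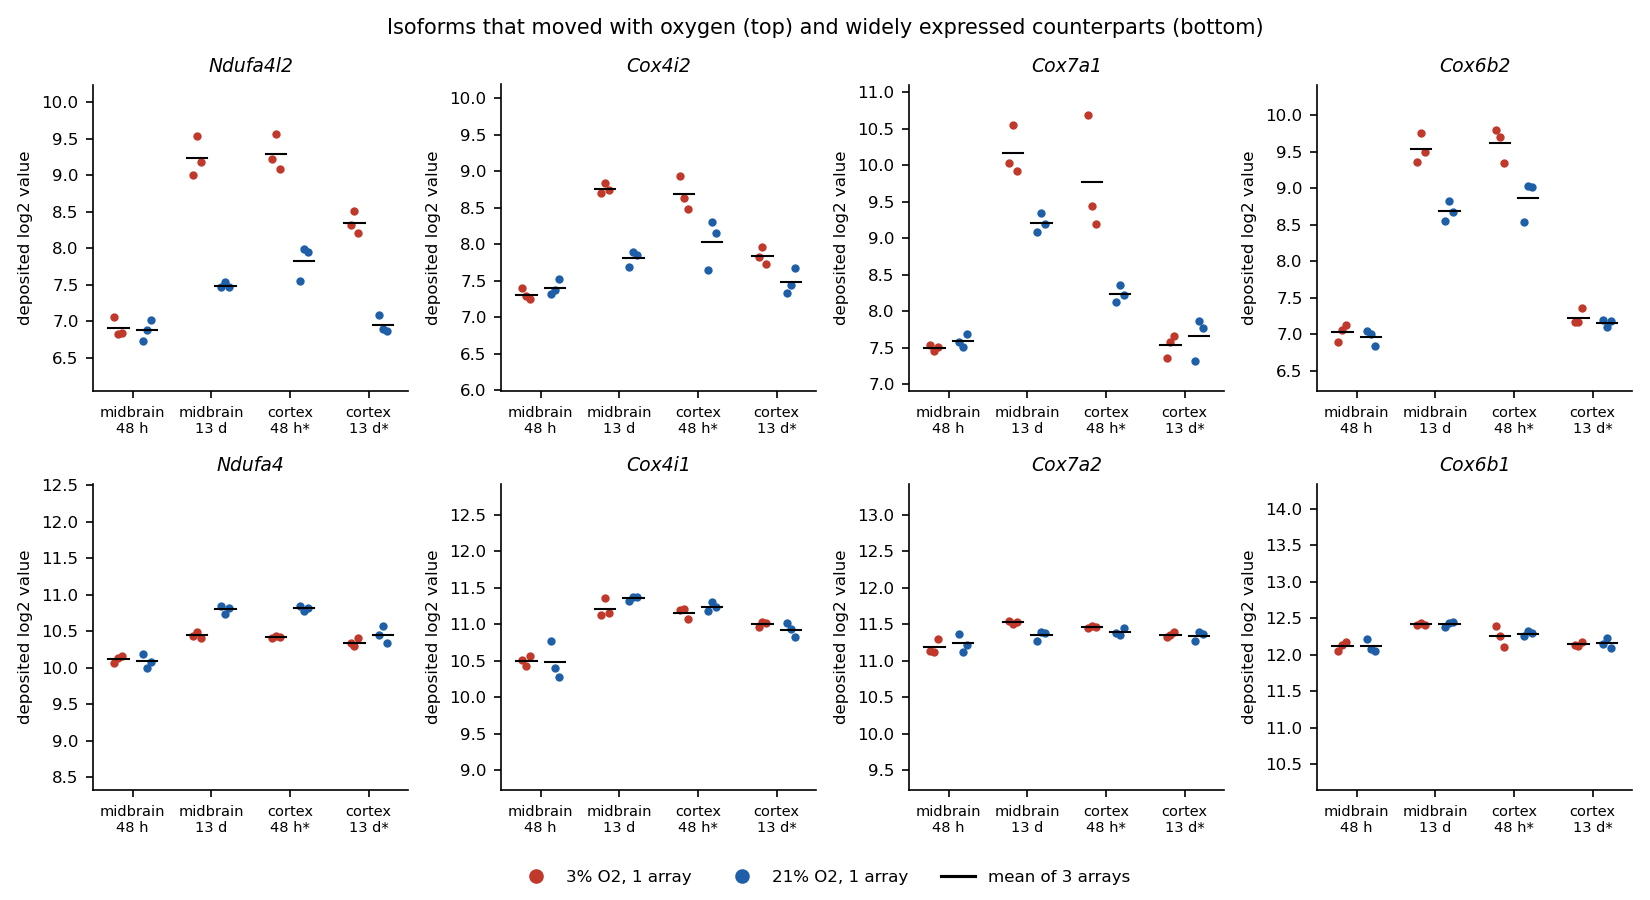
Deposited log2 value (vertical axis, spanning equally many log2 units in every panel) of 8 genes on each of the 24 arrays, by region and culture time (horizontal axis; * marks labelled cortex times). Red points are arrays in 3% O2, blue points arrays in 21% O2 and black bars the means of 3 arrays. The 3% and 21% O2 arrays of Ndufa4l2 lie apart in every set but midbrain 48 h, Ndufa4 goes the other way in midbrain 13 d and cortex 48 h, and Cox4i1 and Cox6b1 stay nearly level between oxygen concentrations.

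Outside complex IV, Ndufv3, an accessory subunit beside the NADH site of complex I, rose from 10.18, 10.36 and 10.29 to 10.63, 10.68 and 10.67 (0.38 ± 0.10, adjusted p = 0.0075). Atp5g1, 1 of 3 genes for the c subunit of the rotating ring, rose from 12.18, 12.10 and 12.11 to 12.48, 12.53 and 12.50 (0.38 ± 0.07, adjusted p = 0.00046). A different Atp5g1 probe set gave 0.35 (adjusted p = 0.00026). Neither gene's groups overlapped, but in midbrain 13 d that held for 30 of the 82 subunit genes, 20 higher and 10 lower. The share over all tested probe sets is not given. Atp5b, the catalytic beta subunit, rose by 0.12 ± 0.04 (adjusted p = 0.016), and the complex I accessory subunits Ndufa3 and Ndufb11 fell by 0.19 ± 0.07 and 0.15 ± 0.05 (adjusted p = 0.039 and 0.041).

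The calls of Atp5b, Cox7a2, Ndufa3 and Ndufb11 were lost without 3% O2 replicate 1, which left 7 called genes, and without 3% O2 replicate 3 (adjusted p from 0.06 to 0.18). Leaving out 21% O2 replicate 1 ended the calls of Cox7a2 and Ndufa3, replicate 2 those of Atp5b, Ndufa3 and Ndufb11, and replicate 3 those of Ndufa3 and Ndufb11 (adjusted p from 0.057 to 0.15). With the arrays paired by replicate number Ndufa3 did not pass (adjusted p = 0.073), and the Ndufb11 call was not shared by its other probe set (-0.15, adjusted p = 0.17).

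Markers of other cell types moved in the same midbrain 13 d arrays, where 11.2% of all tested probe sets rose and 12.7% fell. Of 10 pericyte and fibroblast markers 5 rose and none fell. Among them were the ATP-sensitive potassium channel subunit Abcc9 (0.27 ± 0.05, adjusted p = 0.00038) and the proteoglycan Cspg4 (0.50 ± 0.10, adjusted p = 0.00092). Cspg4 is not particular to mural cells. The mean of the 10 ranged over 7.86 to 8.16 in 3% O2 and over 7.44 to 7.51 in 21% O2. Rgs5 and Kcnj8, which mark pericytes most closely in brain, did not pass. Of the 7 endothelial markers 2 rose, Emcn (1.17 ± 0.31, adjusted p = 0.0078) and Flt1 (1.07 ± 0.30, adjusted p = 0.013), and of the 7 oligodendrocyte markers 2 fell, Gpr17 (-2.18 ± 0.42, adjusted p = 0.0006) and Cnp (-0.67 ± 0.21, adjusted p = 0.024). The part of these cells in the isoform changes was not tested, and in bulk RNA a change in cell number cannot be told apart from a change in RNA per cell.

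Promoter sequences are shown for 5 of the genes that moved with oxygen, to let the reader see where the core of the hypoxia response element lies. They were read from RefSeq on build GRCm38.p6, whose table holds a promoter for 67 of the 82 genes, 72 promoters in all, and none for Ndufa4l2, Cox4i2 or Cox6a2. The letters ACGTG and GCGTG were searched on both strands from 250 bases before to 50 bases after the start site, and CACGTG counts as 2 matches of ACGTG because its strands read alike. The 250 bases before the start are printed 5′ to 3′ on the gene's own strand, with matches in capitals.
Cox7a1, chr7:30183921-30184170, plus strand: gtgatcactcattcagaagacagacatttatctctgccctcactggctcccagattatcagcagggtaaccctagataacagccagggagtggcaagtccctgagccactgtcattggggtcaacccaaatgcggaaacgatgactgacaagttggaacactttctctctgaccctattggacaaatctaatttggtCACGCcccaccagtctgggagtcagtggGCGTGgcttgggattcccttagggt
Cox6b2, chr7:4753095-4753344, minus strand: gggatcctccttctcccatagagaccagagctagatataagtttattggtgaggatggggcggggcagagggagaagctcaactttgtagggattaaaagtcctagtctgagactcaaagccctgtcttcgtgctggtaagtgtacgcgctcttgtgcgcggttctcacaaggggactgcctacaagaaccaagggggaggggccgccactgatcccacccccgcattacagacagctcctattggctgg
Ndufv3, chr17:31519865-31520114, plus strand: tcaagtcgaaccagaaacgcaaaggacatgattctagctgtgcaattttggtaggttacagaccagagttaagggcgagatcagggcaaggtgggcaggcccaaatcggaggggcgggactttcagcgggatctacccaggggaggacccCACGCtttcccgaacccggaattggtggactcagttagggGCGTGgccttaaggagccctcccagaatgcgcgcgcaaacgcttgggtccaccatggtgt
Atp5g1, chr11:96075632-96075881, minus strand: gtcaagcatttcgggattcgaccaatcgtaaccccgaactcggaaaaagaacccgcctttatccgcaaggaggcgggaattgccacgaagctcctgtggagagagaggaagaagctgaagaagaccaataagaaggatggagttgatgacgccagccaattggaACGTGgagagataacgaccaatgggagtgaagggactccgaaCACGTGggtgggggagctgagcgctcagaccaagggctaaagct
Ndufa4, chr6:11907451-11907700, minus strand: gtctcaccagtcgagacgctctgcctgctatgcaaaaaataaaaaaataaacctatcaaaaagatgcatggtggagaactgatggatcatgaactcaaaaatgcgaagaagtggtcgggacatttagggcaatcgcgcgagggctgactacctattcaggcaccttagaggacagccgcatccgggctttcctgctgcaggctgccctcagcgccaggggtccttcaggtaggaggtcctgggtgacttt

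In these sequences Atp5g1 holds ACGTG 3 times, once 86 bases before the start and as the palindrome CACGTG near 44 bases before it. Cox7a1 and Ndufv3 each hold GCGTG 2 times before the start, and their windows hold 1 match of ACGTG each after it. The Ndufv3 window also holds a GCGTG 42 bases into the transcript. Cox6b2 has neither word in its window, and Ndufa4 has a single GCGTG, 36 bases into the transcript. Over all 32851 promoters of the table, 19.6% held ACGTG and 32.4% GCGTG, against 25% and 52.8% of the 72 promoters of subunit genes. A match is a description of the letters and not a binding site.

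In cortex labelled 48 h 6 of the 82 subunit genes rose and 3 fell in 3% O2, where 6.25% of all tested probe sets rose and 6.08% fell. These counts are 7.32% and 3.66% of the subunit genes, and the background shares are again not matched for brightness. With only the probe sets above the median fitted, 2610 probe sets were called, against 2886 in the main fit, and 9 subunit genes. All 6 rises and 1 of the falls were in complex IV, and the other falls in complex I. The median change was -0.01, beside 0.00 over all tested probe sets, and 74 of 82 intervals stayed within 0.5 log2 units of 0. None of the 4 complex II, 8 complex III and 17 complex V genes passed.

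Ndufa4l2 read 9.22, 9.57 and 9.09 in 3% O2 and 7.55, 7.99 and 7.95 in 21% O2, a change of 1.46 ± 0.14 or 2.75-fold (adjusted p = 1.8e-06). Cox7a1 read 10.69, 9.44 and 9.20 against 8.13, 8.36 and 8.22. All 3% O2 arrays were above all 21% O2 arrays, but replicate 1 in 3% O2 stood apart from the other two: the change was 1.54 ± 0.25 (adjusted p = 0.00038), and 1.09 without that array (adjusted p = 0.00026). Cox6a2, the muscle isoform of a small regulatory subunit, read 8.95, 8.60 and 8.43 against 7.80, 7.75 and 7.91 (0.84 ± 0.19, adjusted p = 0.0054). Cox6b2 read 9.80, 9.70 and 9.34 against 8.54, 9.03 and 9.01 (0.76 ± 0.13, adjusted p = 6e-04). Cox4i2 read 8.94, 8.64 and 8.48 against 7.65, 8.30 and 8.16, with the closest 2 arrays 8.48 and 8.30 (0.65 ± 0.13, adjusted p = 0.0029). None of these 5 genes had overlapping groups, but that held for 17 of the 82 subunit genes, 10 higher and 7 lower. The share over all tested probe sets is not given, so nothing is read from it.

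Replicate 1 of these 21% O2 arrays stood apart from the other two of its group, with correlations of 0.986 and 0.992 against 0.998 between them. Its mean of 6 astrocyte markers was 8.64 against 10.06 and 9.83, and that of 7 oligodendrocyte lineage markers 10.26 against 11.44 and 11.33. Without it the changes were 0.45 for Cox4i2 (limma's adjusted p = 0.0083), 0.60 for Cox6b2 (0.0017) and 1.32 for Ndufa4l2 (3.1e-06), and 8 of the 9 calls were kept, all but that of Ndufa11. The part of these markers in the isoform changes was not tested.

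Ndufa4 fell from 10.84, 10.78 and 10.82 in 21% O2 to 10.41, 10.43 and 10.42 in 3% O2, with arrays of a group differing by far less than the groups (-0.40 ± 0.06, adjusted p = 7.9e-05). Ndufb7, an accessory subunit of the membrane arm of complex I, fell from 9.78, 9.76 and 9.77 to 9.51, 9.44 and 9.33 (-0.34 ± 0.07, adjusted p = 0.0042). Ndufa11, of the same arm, fell by 0.31 ± 0.10 (adjusted p = 0.04), and Cox7a2l rose by 0.26 ± 0.07 (adjusted p = 0.017). The counterparts Cox4i1 (-0.08 ± 0.09, adjusted p = 0.66), Cox6a1 (-0.03 ± 0.07, adjusted p = 0.87), Cox6b1 (-0.04 ± 0.06, adjusted p = 0.78) and Cox7a2 (0.07 ± 0.06, adjusted p = 0.56) did not pass.

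Ndufa11 no longer passed when any 1 of the 6 arrays was left out (adjusted p from 0.056 to 0.12) or on its other probe set (-0.19, adjusted p = 0.21). Cox7a2l did not pass without 3% O2 replicate 1 or 2 or 21% O2 replicate 2 (from 0.058 to 0.1), nor on its other probe set (0.35, adjusted p = 0.054). Fitted on the 6 compared arrays alone, Ndufa4l2, Ndufa4 and Ndufa11 passed, while Cox7a1 (adjusted p = 0.12), Cox6a2 (0.05), Cox6b2 (0.11), Cox4i2 (0.17), Cox7a2l (0.2) and Ndufb7 (0.058) did not. That fit called 311 of all tested probe sets, against 2886 in the main fit. Between oxygen concentrations the mean of the 10 pericyte and fibroblast markers was 7.36 ± 0.22 in 3% and 7.37 ± 0.21 in 21% O2, and 1 of 10, Cspg4, rose (0.41 ± 0.10, adjusted p = 0.01). Of the 10 neuron markers 5 fell and 1 rose, beside 6.08% and 6.25% of all tested probe sets. The strongest by limma's p were Syt1 (-0.92 ± 0.09, adjusted p = 3.5e-06) and Stmn2 (-1.30 ± 0.18, adjusted p = 9.2e-05). The part of these markers in the subunit changes was not tested.

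The comparisons of midbrain 13 d and cortex labelled 48 h share no arrays, but their p-values use a variance pooled over all arrays. Called in both, in the same direction, were Ndufa4l2, Cox4i2, Cox6b2, Cox7a1 and, lower, Ndufa4. These are 45.5% of the 11 calls in midbrain 13 d and 55.6% of the 9 in cortex labelled 48 h. The overlap over all tested probe sets is not given, so these percentages have no background to be read against. Fitted on the compared cortex arrays alone, Cox4i2 (limma's adjusted p = 0.17), Cox6b2 (0.11) and Cox7a1 (0.12) did not pass. Ndufa4l2 and Ndufa4 did. Put together after their values had been seen, the 8 isoforms Ndufa4l2, Cox4i2, Cox6a2, Cox6b2, Cox7a1, Cox7b2, Cox8b and Cox8c had 4 rises and a median of 0.62 in midbrain 13 d, and 5 rises and a median of 0.70 in cortex labelled 48 h. They had no rise and a median of -0.03 in midbrain 48 h, and 1 rise and a median of 0.01 in cortex labelled 13 d. Over all tested probe sets 11.2%, 6.25%, 0.701% and 0.543% rose in these 4 comparisons, with medians of -0.01, 0.00, -0.02 and -0.01; since the set was chosen by its values, nothing is read from this. Cox7b2, Cox8b and Cox8c passed in neither, and their log2 levels stayed under the median of all tested probe sets.

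In cortex labelled 13 d 2 of the 82 subunit genes rose in 3% O2 and none fell, against 0.543% of all tested probe sets that rose and 0.0641% that fell. At an unadjusted p under 0.05 in limma, 3 were higher and 4 lower, beside 3.50% and 3.72% of all tested probe sets. The median change was -0.04, beside -0.01 over all tested probe sets, and 78 of 82 intervals lay within 0.5 log2 units of 0. Ndufa4l2 read 8.32, 8.51 and 8.20 in 3% O2 and 7.09, 6.90 and 6.87 in 21% O2, with no overlap (1.39 ± 0.14, 2.63-fold, adjusted p = 9.8e-06). Ndufv3 read 9.67, 9.61 and 9.60 against 9.09, 9.15 and 9.17, also without overlap (0.49 ± 0.10, adjusted p = 0.026), but no longer passed when any 1 of the 6 arrays was left out (adjusted p from 0.083 to 0.13). Groups without overlap were common here, with 21 of the 82 subunit genes, 6 higher and 15 lower. The share over all tested probe sets is not given.

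The other isoforms did not pass in cortex labelled 13 d. Cox4i2 read 7.83, 7.97 and 7.73 in 3% O2 and 7.33, 7.45 and 7.67 in 21% O2 with the closest 2 arrays 7.73 and 7.67 (0.36 ± 0.13, adjusted p = 0.45). Cox6b2 changed by 0.07 ± 0.13, Cox7a1 by -0.12 ± 0.25 and Ndufa4 by -0.11 ± 0.06 (adjusted p = 1, 1 and 0.73). None of the 10 pericyte and fibroblast markers passed, and their mean was 7.03 ± 0.06 in 3% and 6.96 ± 0.03 in 21% O2. The part of those cells in the Ndufa4l2 rise was not tested. In the same arrays Slc16a3 rose by 4.32 ± 0.30 (adjusted p = 2.3e-07) and Pdk1 by 2.74 ± 0.23 (adjusted p = 2.7e-06).

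Whether the oxygen response differed between times or regions was tested as the difference of 2 such changes. In midbrain, 13 d minus 48 h, 3 subunit genes had a more positive and 1 a more negative response, with 6.86% and 8.24% of all tested probe sets. These were Ndufa4l2 (1.72 ± 0.20, adjusted p = 9.9e-06), Cox4i2 (1.04 ± 0.19, adjusted p = 9e-04), Cox6b2 (0.79 ± 0.18, adjusted p = 0.0058) and Ndufa4 (-0.38 ± 0.08, adjusted p = 0.0023). With the arrays paired by replicate number Cox7a1 passed as well (1.06, adjusted p = 0.041). Both oxygen levels of a time carry the same array label. In cortex, labelled 13 d minus 48 h, 1 response was more positive and 2 more negative, beside 1.91% and 2.23% of all tested probe sets: Ndufa4 (0.29 ± 0.08, adjusted p = 0.042), Cox7a1 (-1.66 ± 0.36, adjusted p = 0.012) and Cox6b2 (-0.69 ± 0.18, adjusted p = 0.04). The Ndufa4l2 response did not differ past the threshold between the labelled cortex times, with a difference of -0.07 and a 95% interval from -0.48 to 0.35.

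Between regions at the labelled 48 h, midbrain minus cortex, 1 subunit response was more positive and 6 more negative, while 2.89% and 2.99% of all tested probe sets were. Ndufa4 was the positive one (0.43 ± 0.08, adjusted p = 0.0032), and the largest negative ones were Cox7a1 (-1.64 ± 0.36, adjusted p = 0.01) and Ndufa4l2 (-1.43 ± 0.20, adjusted p = 0.00037). At the labelled 13 d, 5 responses were more positive and 1 more negative, beside 6.71% and 6.80% of all tested probe sets. Among them were Cox7a1 (1.09 ± 0.36, adjusted p = 0.049), Atp5g1 (0.46 ± 0.10, adjusted p = 0.0034) and Ndufa4 (-0.24 ± 0.08, adjusted p = 0.044). With the labelled cortex times crossed, an alternative chosen after the data were seen, Ndufa4l2 alone was called between midbrain 48 h and cortex labelled 13 d (-1.36, adjusted p = 0.011), and Atp5g1 alone between midbrain 13 d and cortex labelled 48 h (0.40, adjusted p = 0.021). Of all 23410 tested probe sets, 5 were called in the former and 1540 in the latter. With the times as labelled, 1377 were called at 48 h and 3162 at 13 d.

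Several of these calls were lost under many of the alternatives. The call of Ndufa4 between the cortex times was lost in 13 of 20 (adjusted p up to 0.12) and that of Cox6b2 in 9 of 20 (up to 0.13). Between regions at 13 d, Cox7a1 and Ndufa4 each lost theirs in 12 of 21 and reversed in 1, where the cortex times were crossed.

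The counts of 3 to 7 genes also moved with single arrays, and so did the totals over all tested probe sets. The total for the cortex time difference ran from 429 to 2970, against 967 in the main fit. The midbrain time difference went from 4 to 9 calls without any of the 3 midbrain 48 h arrays in 21% O2. The cortex time difference went from 3 to 1 without labelled 48 h replicate 1 or 2 in 3% or 3 in 21% O2, or labelled 13 d replicate 1 or 2 in 3% or 1 or 3 in 21% O2. The region difference at 48 h went from 7 to 4 without midbrain 3% O2 replicate 1 or 2 or cortex 3% O2 replicate 2 and to 3 without cortex 3% O2 replicate 1. At 13 d it went from 6 to 3 without midbrain replicate 1 of either oxygen level or cortex 3% O2 replicate 1 or 3.

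Levels in 21% O2 were then compared between regions and between the labelled cortex times. In 21% O2 at the labelled 48 h, 75 of the 82 subunit genes were lower in midbrain than in cortex and none was higher, while 24.3% of all tested probe sets were higher and 30.5% lower. The median difference was -0.53, beside -0.02 over all tested probe sets. All 4 complex II genes were lower (median -0.90), all 8 of complex III (-0.89), 33 of 34 of complex I (-0.53), 15 of 17 of complex V (-0.52) and 15 of 19 of complex IV (-0.41). The 7 that did not pass were Ndufs4, Cox6a2, Cox7b, Cox8b, Cox8c, Atp5b and Atp5md, with differences of at most 0.12 in size.

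**Figure D3:**
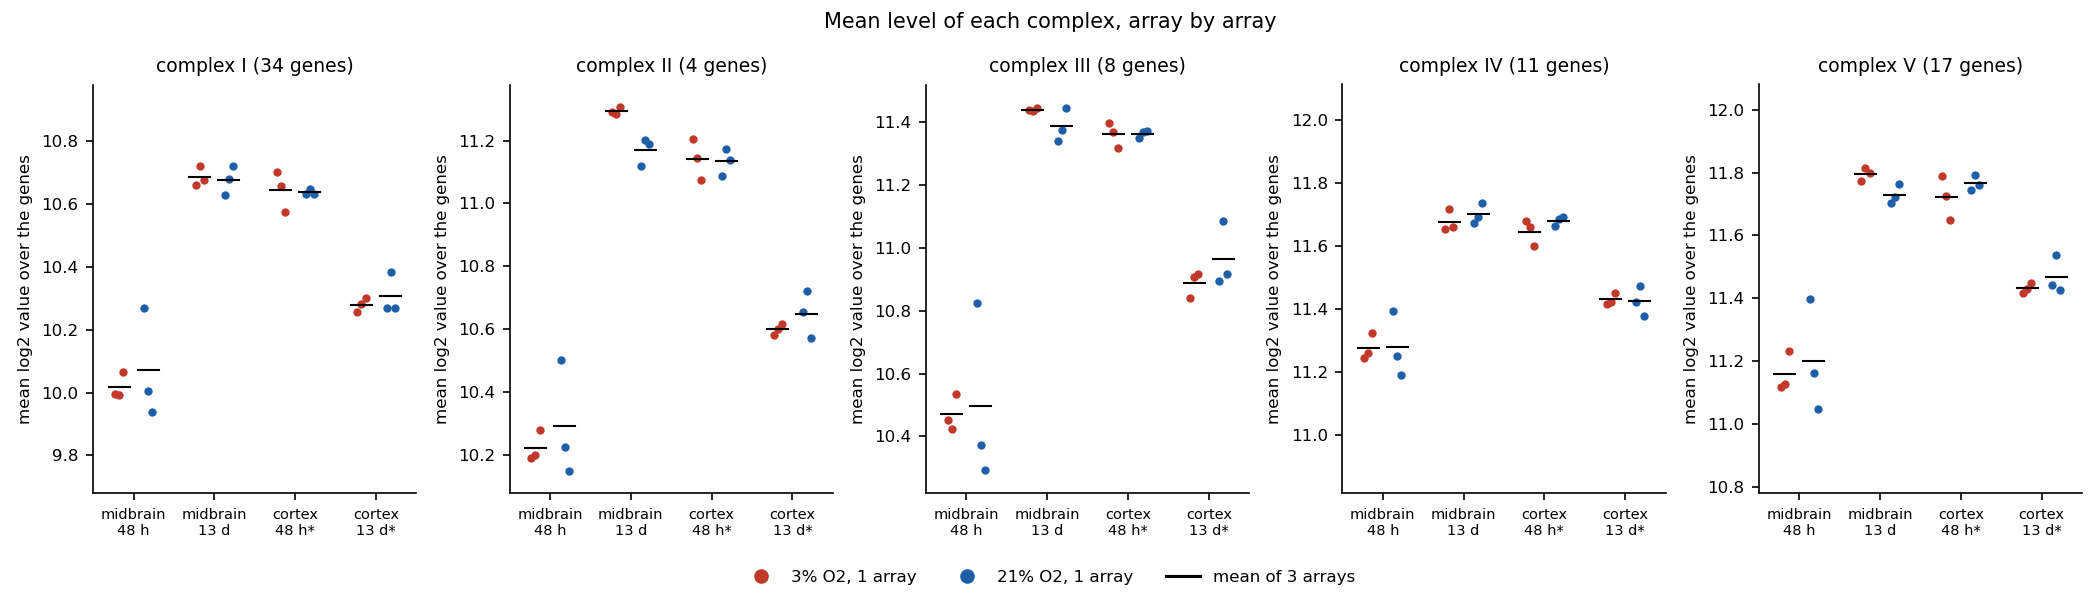
Mean log2 value over the genes of each complex, without 8 isoforms of complex IV, which leaves 11 of its 19 genes (vertical axis, spanning equally many log2 units in every panel) on each of the 24 arrays, by region and culture time (horizontal axis; * marks labelled cortex times). Red points are arrays in 3% O2, blue points arrays in 21% O2 and bars the means of 3 arrays. The midbrain 48 h means lie lower than those of both cortex times in all 5 panels, and the high blue point there is replicate 1; midbrain 13 d carries a different array label and its height is not comparable with that of the other sets.

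The largest differences were in genes from several complexes. Uqcr10, a small subunit of complex III, read 9.65, 9.06 and 8.85 in midbrain and 10.94, 10.91 and 10.90 in cortex labelled 48 h (-1.73 ± 0.14, adjusted p = 1.1e-09). Atp5e, the epsilon subunit of the central stalk, read 9.51, 8.78 and 8.79 against 10.19, 10.65 and 10.49 (-1.42 ± 0.18, adjusted p = 1.3e-06). Both genes were lower on each midbrain array than on any cortex array, and within midbrain replicate 1 was the highest. Cox6b2 had the largest difference of all 82 (-1.90 ± 0.13, adjusted p = 1.3e-10). Ndufa2, an accessory complex I subunit, differed by -1.18, Atp5g2, another c subunit gene, by -1.08, and the membrane anchor Sdhd by -1.08, all lower in midbrain. Atp5b, the catalytic subunit, was level at 13.08, 13.09 and 13.05 against 13.12, 13.04 and 13.06.

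These arrays differed in cell type markers too. All 10 neuron markers were higher in midbrain (median 3.01), and 5 of 5 markers of dividing cells were lower (median -1.61). Over all tested probe sets 24.3% were higher and 30.5% lower. The part of the cell mix in the subunit levels was not tested. With the cortex times crossed, so that midbrain 48 h met cortex labelled 13 d, 43 of the 82 genes were lower and none was higher, beside 21.9% and 19.5% of all tested probe sets.

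In cortex in 21% O2, 53 of the 82 subunit genes were lower at the labelled 13 d than at the labelled 48 h and none was higher, while 16.8% of all tested probe sets were higher and 20.4% lower. The median difference was -0.31, beside -0.03 over all tested probe sets. The lower genes were 23 of 34 in complex I, 4 of 4 in complex II, 6 of 8 in complex III, 9 of 19 in complex IV and 11 of 17 in complex V. Cox6b2 differed most, with 7.20, 7.10 and 7.17 at the labelled 13 d against 8.54, 9.03 and 9.01 (-1.70 ± 0.13, adjusted p = 2.2e-09), followed by Ndufv3 (-0.94 ± 0.10), Uqcr10 (-0.91 ± 0.14), Ndufa4l2 (-0.88 ± 0.14) and Sdhc (-0.77). No array of Cox6b2 at the labelled 13 d reached those of the labelled 48 h. In these arrays 9 of 10 neuron markers were higher at the labelled 13 d (median 2.19), and all 7 oligodendrocyte markers were lower. Their part in the subunit levels was not tested.

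**Figure D4:**
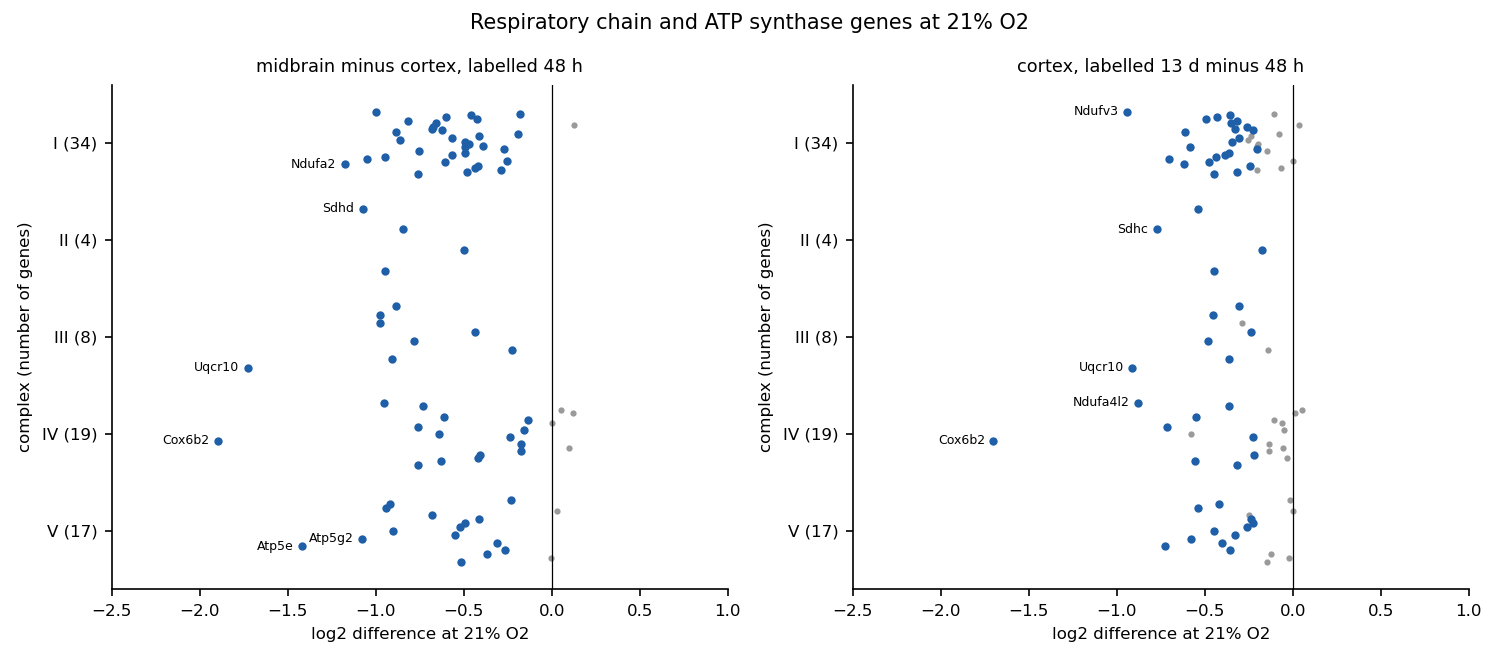
Log2 difference in 21% O2 (horizontal axis) of each of the 82 subunit genes by complex (vertical axis, with the number of genes), for midbrain minus cortex at the labelled 48 h (left) and cortex labelled 13 d minus 48 h (right). Each point is 1 gene, blue where it was lower at an adjusted p under 0.05 and grey where it did not pass. Nearly all points of every complex lie left of 0, with Cox6b2 farthest left in both panels.

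The genes that build and feed the chain were taken from lists. Beside the counts of every list below, 11.2% of all tested probe sets rose and 12.7% fell in midbrain 13 d. In cortex labelled 48 h these shares were 6.25% and 6.08%. They were 0.543% and 0.0641% in cortex labelled 13 d, and 0.701% and 0.491% in midbrain 48 h. Of 52 assembly factors 47 were measured. In midbrain 13 d 8 of them fell and 2 rose, led by the insertase Oxa1l (-0.35 ± 0.04, adjusted p = 4.4e-06) and Surf1, a complex IV assembly factor (-0.44 ± 0.05, adjusted p = 6.9e-06). In cortex labelled 48 h 2 rose, the complex III factor Lyrm7 (0.32 ± 0.06, adjusted p = 0.00058) and the complex I factor Ndufaf3 (0.29 ± 0.08, adjusted p = 0.024), and 2 fell. In cortex labelled 13 d only Higd1a, a hypoxia-induced partner of complex IV, rose (1.26 ± 0.22, adjusted p = 0.0043), and in midbrain 48 h none passed. Of 77 mitochondrial ribosome genes 17 fell and 2 rose in midbrain 13 d, led by Mrpl4 (-0.30 ± 0.06, adjusted p = 0.00053) and Mrps11 (-0.34 ± 0.07, adjusted p = 0.00084). In cortex labelled 48 h 1 rose and 1 fell, Mrpl23 (0.26 ± 0.08, adjusted p = 0.044) and Mrpl33 (-0.28 ± 0.06, adjusted p = 0.0023), and none passed in the other 2 comparisons.

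Among 18 measured genes of electron carriers and of dehydrogenases that feed ubiquinone, 4 fell and 1 rose in midbrain 13 d: the sulfide oxidase Sqor was lower (-0.81 ± 0.08, adjusted p = 2.5e-07) and cytochrome c, Cycs, higher (0.37 ± 0.07, adjusted p = 0.00046). Gpd2, the mitochondrial glycerol phosphate dehydrogenase, fell in cortex labelled 48 h (-0.61 ± 0.12, adjusted p = 0.0016), and Coq5, of ubiquinone synthesis, in midbrain 48 h (-0.31 ± 0.07, adjusted p = 0.027). Of 18 measured genes of the citric acid cycle and pyruvate dehydrogenase, 4 rose and 1 fell in midbrain 13 d and 2 rose in cortex labelled 48 h. Idh3a, the catalytic subunit of isocitrate dehydrogenase, rose in both (0.67 ± 0.07, adjusted p = 1.6e-06, and 0.26 ± 0.07, adjusted p = 0.026), as did Dlat, the acetyltransferase of pyruvate dehydrogenase (0.45 ± 0.09, adjusted p = 0.00085, and 0.32 ± 0.09, adjusted p = 0.026). Of 17 regulators of mitochondrial biogenesis 3 rose and 4 fell in midbrain 13 d, among them Yy1 (0.36 ± 0.05, adjusted p = 1.1e-05) and Esrra (0.53 ± 0.08, adjusted p = 8.5e-05), and 2 rose in cortex labelled 48 h, Yy1 (0.15 ± 0.05, adjusted p = 0.038) and the helicase Twnk (0.25 ± 0.08, adjusted p = 0.048).

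The 14 hypoxic regulators of respiration, a list of genes known to rise or act in low oxygen, had 6 rises in midbrain 48 h, 9 rises and 2 falls in midbrain 13 d, 5 rises in cortex labelled 48 h and 8 rises in cortex labelled 13 d. Their median changes were 0.37, 0.66, 0.33 and 0.76. Lonp1, the protease that degrades Cox4i1 in low oxygen, rose in midbrain at 13 d (0.61 ± 0.10, adjusted p = 0.00019) and in cortex labelled 48 h (0.52 ± 0.10, adjusted p = 0.0023). It did not pass in midbrain 48 h (0.06 ± 0.10, adjusted p = 0.84) or cortex labelled 13 d (0.19 ± 0.10, adjusted p = 0.77). The oxygen sensor Egln3 rose in all 4, by 1.12 ± 0.21, 1.22 ± 0.21, 1.09 ± 0.21 and 2.44 ± 0.21 in the same order (adjusted p = 0.011, 0.00023, 0.0017 and 3e-06).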

How the data were processed

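Total RNA was hybridised as biotin-labelled cDNA to MoGene-1_0-st-v1 arrays, 1 for each sample (per the labels' protocols). A table of log2 values that the labels call normalized was deposited by the authors, for 28856 probe sets on 24 arrays. Their normalization was not given in the sources used here, and a shift common to a whole array would be hidden. Gene symbols came from the platform annotation: 23410 probe sets had a symbol and were tested, 21789 of them with 1 and 1621 with several, and 5446 had none. All 82 member symbols matched the RefSeq gene table by Entrez number.

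The rule for the members, the gene lists, the tests and the choice of named genes were settled with earlier results of these data known. The text names the called members (at most the 8 largest in each direction for oxygen, 5 for other comparisons), a panel of isoforms, and the 2 genes with the smallest p of a list.

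Limma 3.58.1 in R 4.3.3 fitted 8 group means to all 24 arrays (16 residual degrees of freedom) with eBayes, two-sided, with Benjamini-Hochberg adjustment in each of 10 comparisons and a threshold of 0.05. The model was tested on simulated data. Deviations from the group means were correlated between 3% and 21% O2 arrays of the same replicate number. In midbrain these correlations were 0.12, 0.22, 0.24 (48 h), 0.12, 0.42 and 0.31 (13 d). All exceed 0.1, and the numbers were taken to pair the arrays there. This rests on the data and not on a label, and for replicate 1 at 13 d a different number correlated better (0.16). The main fit does not use the pairing, so the p-values outside the replicate block ignore it. In cortex the correlations ran from -0.37 to 0.42, and the numbers were not taken to pair the arrays. Promoters were read from a RefSeq table on GRCm38.p6, with Python. Proteins were not used here.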

Additional observations from a re-analysis of the deposited data

Results flagged for a closer look

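These results stand out because the oxygen response of a gene differed between times or regions by a test of the difference itself, limma's adjusted p for the difference of 2 changes with 3 arrays in each of 4 groups. In midbrain, 13 d minus 48 h, the difference was 1.72 for Ndufa4l2 (adjusted p = 9.9e-06), 1.04 for Cox4i2 (9e-04), 0.79 for Cox6b2 (0.0058) and -0.38 for Ndufa4 (0.0023). In cortex, labelled 13 d minus 48 h, it was -1.66 for Cox7a1 (adjusted p = 0.012), -0.69 for Cox6b2 (0.04) and 0.29 for Ndufa4 (0.042). Of 20 alternatives for each, 13 ended the Ndufa4 call in cortex, 9 that of Cox6b2 and 1 that of Cox7a1, while the 4 midbrain calls held in all 20.

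Between midbrain and cortex at the labelled 48 h the differences were -1.64 for Cox7a1 (adjusted p = 0.01), -1.43 for Ndufa4l2 (0.00037), -0.74 for Cox4i2 (0.026), -0.69 for Cox6b2 (0.031), -0.40 for Ndufa9 (0.042), -0.37 for Cox7a2l (0.031) and 0.43 for Ndufa4 (0.0032). At the labelled 13 d they were 1.09 for Cox7a1 (adjusted p = 0.049), 0.79 for Cox6b2 (0.0064), 0.59 for Cox4i2 (0.048), 0.46 for Atp5g1 (0.0034), 0.19 for Atp5b (0.015) and -0.24 for Ndufa4 (0.044). Of the calls at 48 h, that of Ndufa9 was lost in 12 of 21 alternatives, Cox7a2l in 11 of 22, Cox6b2 in 8 of 21 and Cox4i2 in 7 of 21. At 13 d Cox4i2 was lost in 13 of 21, and Cox7a1 and Ndufa4 in 12 of 21 each, with 1 reversal each. The region differences rest on the labelled cortex times.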

How the results depend on the processing

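Of 167 recounts of called subunit genes under alternatives, 126 stayed within 1.5 times the reported count. Of 918 recomputed changes of single genes, 764 kept their direction and their side of the threshold, 150 lost the call, 1 gained it and 3 reversed. Ndufa4l2 and Ndufa4 kept their calls in midbrain 13 d and cortex labelled 48 h in all alternatives. Array weights raised the counts to 27 in midbrain 13 d, 14 in cortex labelled 48 h, 6 in cortex labelled 13 d, 15 and 10 for the midbrain and cortex time differences, and 11 and 22 for the region differences at 48 h and 13 d. Over all tested probe sets they called 9494, 6299 and 815 in these oxygen comparisons, against 5584, 2886 and 142 in the main fit. For the differences, in the same order, the totals were 5708, 4323, 3597 and 6745, against 3536, 967, 1377 and 3162. Quantile normalization gave 1 call in midbrain 48 h, Ndufa9 (-0.28, adjusted p = 0.049), and 8 for the midbrain time difference. Its totals over all tested probe sets were 422 and 3869, against 279 and 3536 in the main fit. Fits of the compared arrays alone gave 3 calls in cortex labelled 48 h, 1 for the cortex time difference and 3 for the region difference at 48 h. These fits called 311, 377 and 331 of all tested probe sets, against 2886, 967 and 1377 in the main fit. The cause was not tested. Crossing the cortex times, added after the data were seen, left 1 call for each region difference and 43 for the region levels, and reversed Cox7a1 at 48 h (0.028, adjusted p = 1) and at 13 d (-0.58, adjusted p = 0.42) and Ndufa4 at 13 d (0.045, adjusted p = 0.84). With the times crossed, 5 of all tested probe sets were called for the region difference at 48 h, 1540 at 13 d and 9689 for the region levels.

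Leaving out 1 array at a time gave 0 to 2 calls in midbrain 48 h, 7 to 12 in midbrain 13 d, 7 to 10 in cortex labelled 48 h, 1 to 1 in cortex labelled 13 d, 4 to 9 and 1 to 4 for the midbrain and cortex time differences, 3 to 8 and 3 to 6 for the region differences at 48 h and 13 d, 65 to 74 for the region levels and 45 to 52 for the cortex levels. The totals over all tested probe sets ran from 4418 to 5400 in midbrain 13 d and from 1725 to 4210 in cortex labelled 48 h. In the main fit they were 5584 and 2886. With the replicate block the counts were 0, 10, 8 and 2 in the 4 oxygen comparisons in the order of the report, 5, 2, 5 and 4 for the differences of responses and 75 and 52 for the levels. The block called 368, 6052, 3507 and 170 of all tested probe sets in the oxygen comparisons. In midbrain the block ended only the oxygen call of Ndufa3 and added Cox7a1 to the time difference (1.06, adjusted p = 0.041). In cortex, where the numbers were not taken to pair the arrays, Cox7a2l (adjusted p = 0.053) and Ndufa11 (0.061) lost theirs and Cox8b gained one (0.24, adjusted p = 0.04). Normalized values carry no background, so signal over background cannot be given.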
